A study of Homo sapiens with 12 samples.

Results

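The cytosolic ribosomal protein genes encode the proteins of the small and large subunits of the ribosome outside mitochondria. They were taken here as the genes with a symbol of the form RPL or RPS plus digits, with an optional suffix such as A, X or L1, or RPLP plus a digit, for which a probe set of the array named that gene alone. Pseudogenes and the RPS6 kinases were excluded. The rule gave 61 genes of the 19775 on the array, and each was represented by its probe set with the highest mean over all arrays. Of these, 52 are constituents of the standard ribosome and 9 are paralogues with a suffix of their own (RPL3L, RPL7L1, RPL10L, RPL22L1, RPL26L1, RPL36AL, RPL39L, RPS4Y1 and RPS27L). Another 15 symbols of the same form, among them RPL5, RPL13A and RPL23, had probe sets that name several genes and were not used here.

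RNA came from HK-2, an immortalised epithelial line from human renal proximal tubule, and was hybridised to 12 Affymetrix arrays. Cultures received Aa, labelled as a high dose, or the control vehicle, and were collected after 24 h or 48 h. The labels count 3 biological replicates in each of the 4 groups. All groups grew in the same medium, which contained EGF, hydrocortisone, insulin, transferrin and selenite. What Aa is and how much of it was added are not stated in the labels. HK-2 is a single transformed line, and its identity was checked on marker genes. Of 20 epithelial and tubule markers on the array, 9 lay over the detection filter described below. The brush border and transporter markers GGT1, ANPEP, MME, AQP1, LRP2, CUBN, SLC34A1, SLC5A2, SLC22A6 and SLC22A8 did not. Of the other lists, 3 of 7 fibroblast, 1 of 6 endothelial and 0 of 6 leukocyte markers did. The summed signal of the epithelial list was 14.77 to 14.88 in control and 14.04 to 14.30 in Aa at 24 h, and 14.59 to 14.78 in control and 13.96 to 14.33 in Aa at 48 h, in log2 units, and its part in the results was not tested.

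Cytosolic ribosomes are assembled in the nucleolus, where ribosomal proteins imported from the cytoplasm join ribosomal RNA, most of them in equal amounts. The messenger RNAs of most vertebrate ribosomal proteins begin with a C followed by an unbroken run of pyrimidines, the 5′ terminal oligopyrimidine (TOP) tract, through which mTORC1 and the LARP1 protein set how much of each message is translated. Much of the control of these genes in growing and starved cells is therefore exerted on translation, which arrays of total RNA do not measure. Free ribosomal proteins also act outside the ribosome. RPL5 and RPL11, bound to 5S ribosomal RNA, inhibit MDM2 and so raise p53.

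The start of the transcript is shown for 8 genes on which the results below turn, or which pair with them, to set the TOP tract beside the paralogues that have none. Sequences are from RefSeq (GRCh38.p14) and run 5′ to 3′ on the gene's strand, from 10 bases before the annotated start. Capitals mark the unbroken pyrimidines that follow an annotated start, where there are any. RPS6 and RPL35 have long tracts, RPL3 a short one, and RPL22 and RPS27 are shown above their paralogues. The windows are chr9:19380217-19380246 for RPS6, chr9:124861938-124861967 for RPL35, chr22:39319604-39319633 for RPL3 and chr1:6199576-6199605 for RPL22, all on the minus strand. They are chr3:170870176-170870205 for RPL22L1 and chr15:63157458-63157487 for RPS27L on the minus strand, and chr1:153990752-153990781 for RPS27 and chr6:42879606-42879635 for RPL7L1 on the plus strand.
RPS6: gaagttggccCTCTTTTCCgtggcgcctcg
RPL35: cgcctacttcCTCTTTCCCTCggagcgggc
RPL3: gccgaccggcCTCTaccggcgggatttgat
RPL22: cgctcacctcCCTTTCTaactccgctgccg
RPL22L1: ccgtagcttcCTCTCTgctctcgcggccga
RPS27: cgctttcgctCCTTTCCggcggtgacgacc
RPS27L: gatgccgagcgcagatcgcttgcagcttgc
RPL7L1: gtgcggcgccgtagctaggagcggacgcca

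Promoter entries matched 53 of the 61 genes by symbol. A start tract, meaning a C at an annotated start followed by at least 4 pyrimidines, was present in 36 of those 53 genes (67.9%). The share was 34 of 46 among the standard ribosomal proteins (73.9%) and 2 of 7 among the paralogues (28.6%), against 5.14% of 27305 genes with a promoter entry. RPL22L1 has a tract like its parent RPL22, whereas RPS27L, RPL7L1 and RPL26L1 have none at their annotated starts. The letters CTCTTTC, searched on both strands of the 300 bases around the start, occurred in 20.8% of the ribosomal protein genes and in 9.31% of all genes; they can overlap a start tract. Such a match describes the annotated start and does not show the start used in these cells.

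The values are GCRMA signals on a log2 scale. Genes entered the test if 3 or more of the 12 arrays had a signal above log2 4. That left 58 ribosomal protein genes among 11184 genes. RPL10L and RPL3L, paralogues known from testis and striated muscle, did not pass. Neither did the stalk protein gene RPLP2, whose signals of 3.37 to 3.59 lay under the filter on every array. The 51 standard genes that were tested (31 of the large and 20 of the small subunit) had a median signal of 15.06, against 8.53 for all genes, and 48 of them lay over 14. Ribosomal protein genes were 47 of the 100 genes with the highest signal. The highest value of any probe set was 16.2. Signals of different probe sets do not measure relative amounts of transcript, so levels are compared below only within a gene.

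Exposure to Aa left the signal of the ribosomal protein genes nearly where it was at 24 h. RPL7L1 and RPL22L1, both paralogues, were higher in Aa, and 0 genes were lower. That is 3.45% of the 58, while 49.1% of all genes tested passed the same threshold, an adjusted p under 0.05 (limma, Benjamini-Hochberg over all genes tested), 26.3% as higher and 22.8% as lower. At an unadjusted p under 0.05 the counts were also 2 and 0. Of the 51 standard ribosomal proteins, 0 were higher and 0 lower, at either threshold. Their log2 changes ran from -0.11 to 0.16, with a median of 0.08 beside 0.02 for all genes, and the 95% interval of the change lay within 0.5 of 0 (1.41-fold) for 51 of 51. Over all genes tested, whose median SE was 0.161 against 0.0847 for the standard proteins, such a narrow interval around 0 was found for 23.2%. With the trended and robust variance model limma called 9 ribosomal protein genes higher at 24 h, where 50.1% of all genes passed, and without the signal filter it called 10, where 26.2% passed. Both counts contained RPL10A, RPL11, RPL19, RPL39, RPS19 and RPS24 beside the 2 paralogues.

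At 48 h more of the set passed, with log2 changes between -0.47 and 0.78 except for RPL36A at 2.10. RPL36A, RPL7L1, RPL22L1, RPL26L1, RPL35, RPS19 and RPL19 were higher and RPL3 and RPS15A lower, 15.5% of the 58, where 64.5% of all genes passed, 30.6% as higher and 33.9% as lower. Among the 51 standard proteins 4 were higher and 2 lower, with a median log2 change of 0.06, and the interval lay within 0.5 of 0 for 49. For all genes the median was -0.03 and 18.2% had such an interval. The SD of the changes was 0.132 at 24 h and 0.328 at 48 h for the 58 genes, against 1.04 and 1.34 for all genes. Without RPL36A the 48 h SD was 0.198. The plot of cumulative distributions shows this narrow spread.

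**Figure D1:**
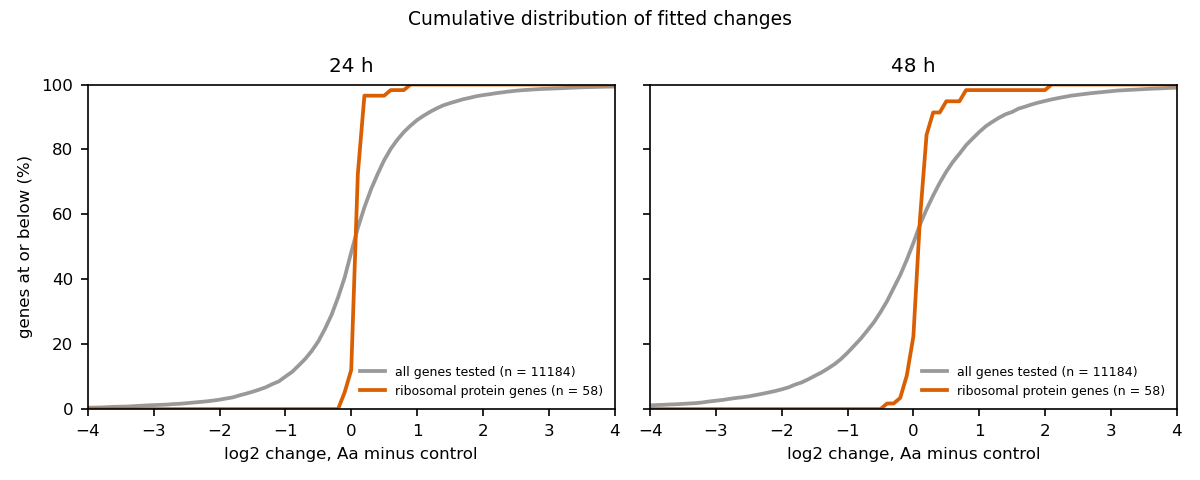
Cumulative percentage of genes (vertical axis) at or below each log2 change of Aa minus control (horizontal axis) at 24 h and 48 h, for the 58 ribosomal protein genes and all 11184 genes tested. The ribosomal protein line climbs steeply around 0, where the line of all genes spreads over several log2 units.

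The high signal of the set bears on these shares and on the spread. Over log2 14, limma called 6.49% of the 77 other genes at 24 h and 41.6% at 48 h, against 0 and 10.4% of the 48 standard ribosomal proteins in that range. Few genes of such signal were called at 24 h, whether ribosomal or not. The quartiles of the log2 change of the 77 were -0.11 and 0.06 at 24 h and -0.31 and 0.10 at 48 h. Those of the 48 were 0.05 and 0.10, and 0 and 0.13. The median SE was 0.0938 for the 77 and 0.0843 for the 48. Over all genes tested, arrays with the same replicate number in the labels deviated together. With the number as a block limma called 2 and 0 genes at 24 h and 13 higher and 3 lower at 48 h, when 61.5% and 73.3% of all genes passed. The blocked calls at 48 h held all 9 listed above and added RPL18, RPL30, RPL32, RPL39, RPL39L and RPS10 as higher and RPS3 as lower. Among those added, RPL39L had a log2 change of 0.41 and the others between -0.17 and 0.20.

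**Figure D2:**
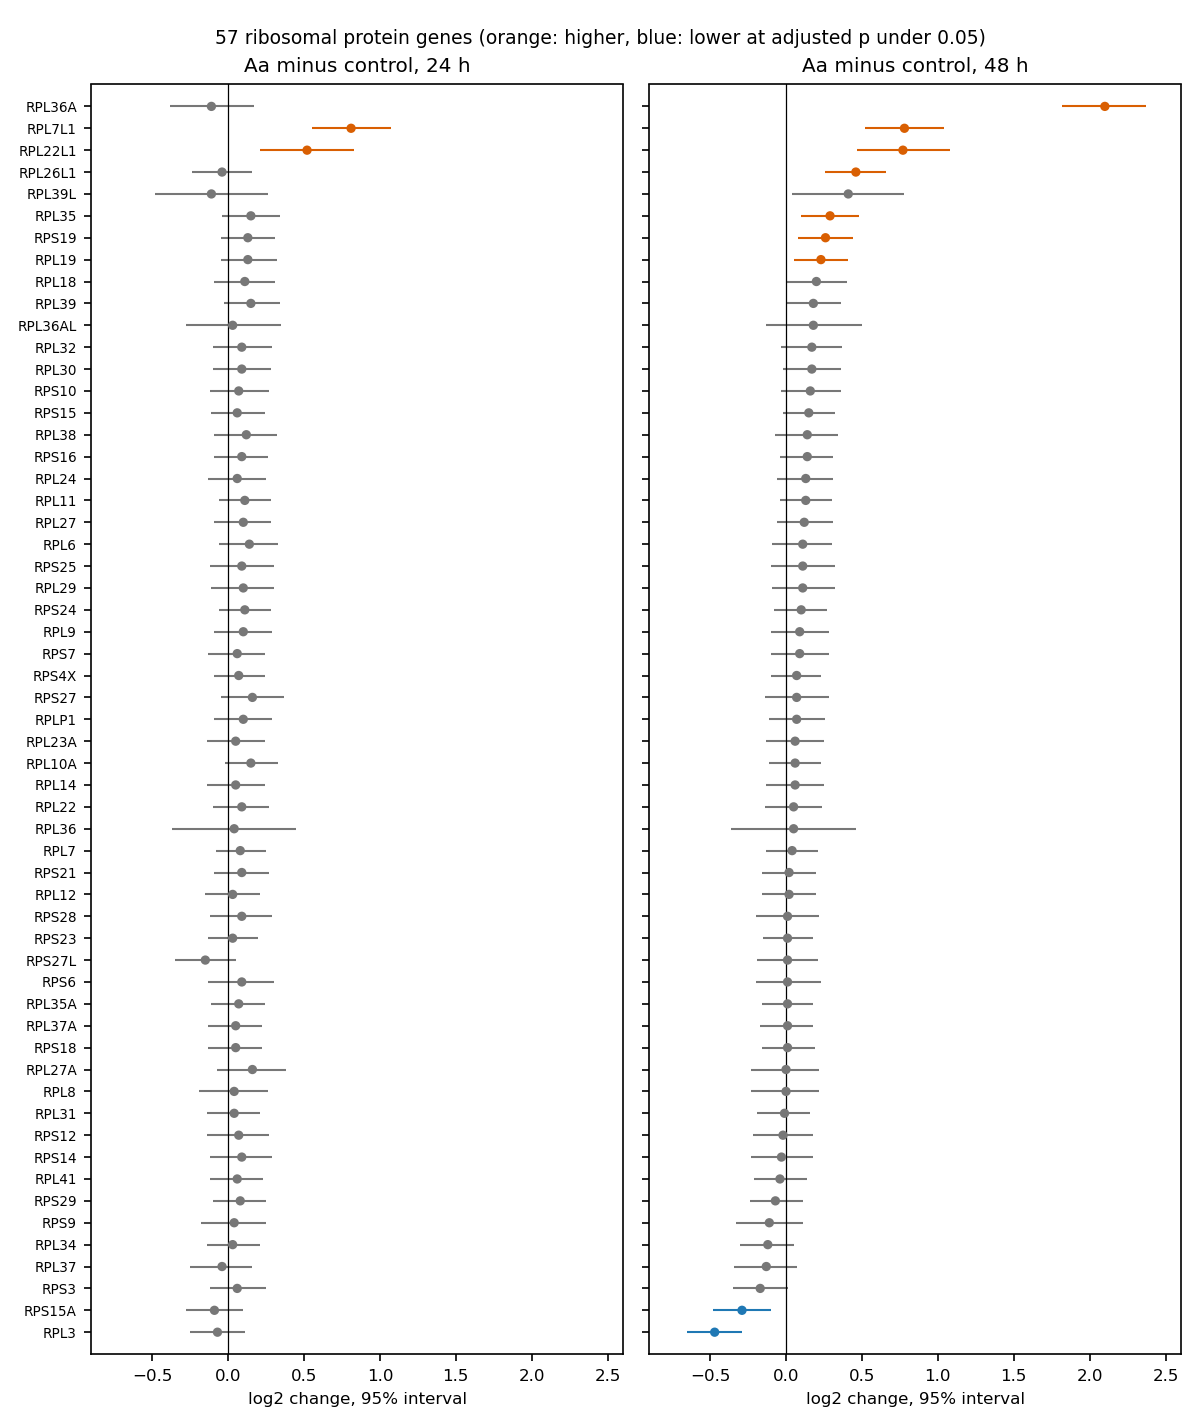
Log2 change of Aa minus control with its 95% interval (horizontal axis) at 24 h and 48 h for 57 tested ribosomal protein genes (vertical axis), ordered by the change at 48 h; the Y-linked gene is left out. At 24 h the intervals of RPL7L1 and RPL22L1 stand clear of 0, and at 48 h RPL36A stands apart at 2.10.

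The changes leaned to one side. The fitted change was positive for 51 of the 58 genes at 24 h and for 45 at 48 h. Among all 11184 genes tested it was positive for 5779 at 24 h and 5458 at 48 h. The Aa and control arrays did not overlap for 22 genes at 24 h, with Aa higher in 21 and lower in 1, where 59.8% of all genes had groups that did not overlap, 30.8% with Aa higher and 29% with Aa lower. At 48 h they did not overlap for 25 genes, 21 higher and 4 lower, beside 69.1% of all genes, 33% higher and 36.1% lower. The mean signal of the standard proteins was 14.60 ± 0.0133 (SD, n = 3) in control and 14.67 ± 0.00462 in Aa at 24 h, and 14.66 ± 0.0127 and 14.75 ± 0.048 at 48 h. The control groups of the 2 times differed from each other by a similar amount. RPL36A, described below, weighs on the 48 h values. Without it, a choice made after its values were seen, the mean over 50 genes was 14.79 ± 0.0125 in control and 14.87 ± 0.00298 in Aa at 24 h, where the Aa arrays lay above the control arrays. At 48 h it was 14.86 ± 0.0141 and 14.90 ± 0.0496, with control arrays from 14.85 to 14.87 and Aa arrays from 14.86 to 14.95, so the groups overlapped. A measure of RNA integrity was the 3′ minus 5′ log2 signal of the actin and GAPDH control probe sets. Its group means at 24 h were 0.306 in control and 0.394 in Aa, and the arrays overlapped (0.246 to 0.355 and 0.264 to 0.547). At 48 h the means were 0.319 and 0.542. The Aa arrays (0.431 to 0.68) then lay above the control arrays (0.235 to 0.418). The part of RNA integrity in the lean was not tested.

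The direction of the lean rests on the scale. When each array was scaled to its added hybridisation controls instead, the median log2 change of all genes moved by -0.29 at 24 h and -0.44 at 48 h, and that of the ribosomal protein genes became -0.21 and -0.37. On that scale 1 ribosomal protein gene was higher and 3 lower at 24 h, and 1 higher and 38 lower at 48 h. Of all 11294 genes then tested, 49.3% passed at 24 h, 1664 higher and 3903 lower. At 48 h 68.9% of them passed, 1806 higher and 5981 lower. The share of all calls that were higher fell from 53.6% to 29.9% at 24 h and from 47.5% to 23.2% at 48 h. The median of the set lay 0.05 above that of all genes at 24 h and 0.09 at 48 h as deposited, and 0.06 and 0.09 after the scaling. The scaling moves every gene of an array by the same amount. That agreement was therefore fixed in advance, apart from which genes passed the filter. GCRMA sets the arrays to nearly equal distributions, so a change in the total of messenger RNA, from fewer cells or from less RNA per cell, would not show in the deposited values and the 2 could not be told apart. Whether the hybridisation control scale follows such a total was not tested. All directions below are relative to the other genes on the array. On the hybridisation control scale RPL35, RPL19 and RPS19 at 48 h had log2 changes of -0.15, -0.21 and -0.18, and RPL22L1 at both times and RPL7L1 and RPL26L1 at 48 h were positive without passing.

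Paralogues were the genes that passed at 24 h. RPL7L1, a relative of RPL7 that acts in ribosome assembly, had signals of 12.21, 11.97 and 12.25 in control and 12.98, 12.87 and 13.00 in Aa at 24 h, and 12.27, 12.02 and 12.20 in control and 12.84, 12.86 and 13.13 in Aa at 48 h. All 6 Aa arrays lay above all 6 control arrays. The log2 change was 0.81 (SE 0.118, 1.75-fold, limma adjusted p = 0.000211) at 24 h and 0.78 (SE 0.118, 1.72-fold, adjusted p = 0.000159) at 48 h. Its parent RPL7, on chromosome 8, did not pass at either time, with log2 changes of 0.08 and 0.04. The only probe set of RPL7L1 is of the type that the manufacturer marks as able to bind related transcripts.

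RPL22L1 encodes a paralogue that can take the place of RPL22 in the large subunit. Its signals were 11.32, 11.13 and 11.49 in control and 11.77, 11.79 and 11.94 in Aa at 24 h, and 11.26, 11.13 and 11.22 in control and 11.76, 11.89 and 12.27 in Aa at 48 h. The Aa and control arrays did not overlap at either time. The log2 change was 0.52 (SE 0.139, 1.43-fold, limma adjusted p = 0.00934) at 24 h and 0.77 (SE 0.139, 1.71-fold, adjusted p = 0.000555) at 48 h. RPL22 did not pass at its used probe set, with 0.09 (95% interval -0.10 to 0.27) and 0.05 (-0.14 to 0.24). Of the 4 other RPL22 probe sets 1 passed, with a log2 change of 0.33 at 24 h and 0.04 at 48 h.

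RPL26L1, a near copy of RPL26, rose at 48 h and not at 24 h. Its signals were 11.07, 11.19 and 11.12 in control and 11.02, 11.07 and 11.17 in Aa at 24 h, where the groups overlapped. At 48 h they were 10.95, 10.93 and 11.14 in control and 11.42, 11.51 and 11.48 in Aa, with no overlap. The log2 change was -0.04 (SE 0.0922) at 24 h and 0.46 (SE 0.0922, 1.38-fold, limma adjusted p = 0.00113) at 48 h. The difference between the times was 0.50 (SE 0.130, adjusted p = 0.0244). That call was lost in 6 of the 12 fits that left out 1 array, with a difference between 0.46 and 0.50 and an adjusted p between 0.0524 and 0.0605 in those fits. They were the fits without replicate 1 or 2 of Aa at 24 h, 2 or 3 of control at 24 h, and 1 or 2 of control at 48 h.

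RPL39L, RPL36AL and RPS27L did not pass at either time. RPL39L, whose product replaces RPL39 at the exit of the peptide tunnel in some ribosomes, had signals of 9.23, 8.97 and 9.45 in control and 9.66, 9.47 and 9.75 in Aa at 48 h. The groups did not overlap, and the log2 change of 0.41 (SE 0.167) had a limma adjusted p of 0.0501, against 0.00379 with the replicate block. At 24 h its change was -0.11 (SE 0.167). RPL39 itself had 0.15 and 0.18. RPS27L, a p53 target whose product relates to RPS27, had log2 changes of -0.15 (95% interval -0.35 to 0.05) and 0.01 (-0.19 to 0.21), and RPS27 had 0.16 and 0.07. The 7 paralogues tested, RPS4Y1 included, had a median log2 change of 0.03 at 24 h and 0.41 at 48 h. Of them 2 passed at 24 h (28.6%) and 3 at 48 h (42.9%), all higher, where 49.1% and 64.5% of all genes passed.

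**Figure D3:**
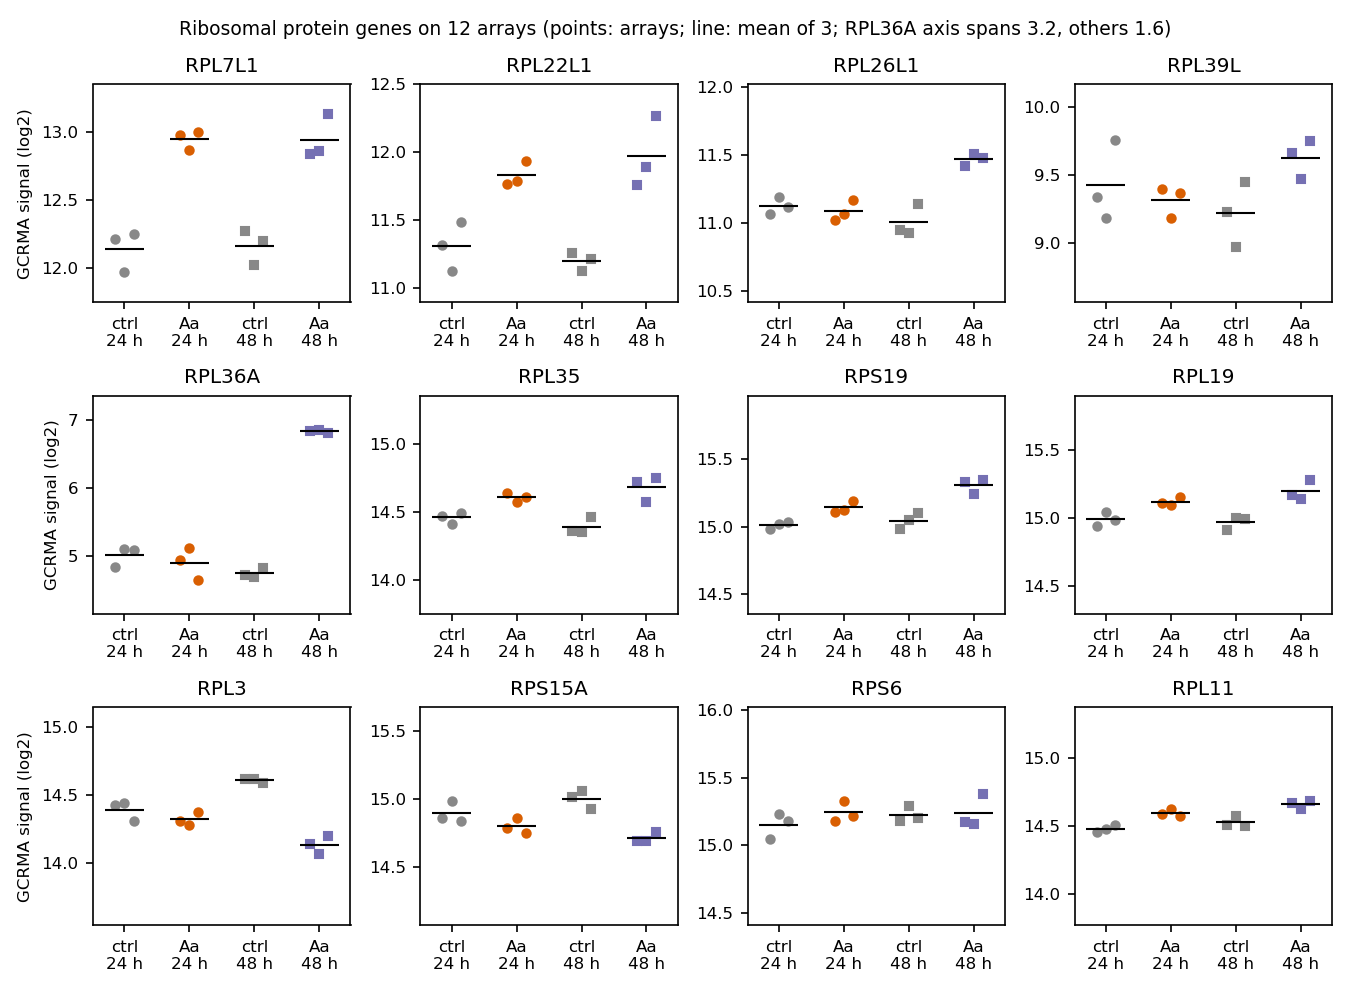
GCRMA signal on a log2 scale (vertical axis) of 12 ribosomal protein genes on each array, by group (horizontal axis); points are arrays, lines are means of 3, and the RPL36A axis spans a wider range than the others. RPL7L1 and RPL22L1 are higher in Aa at both times, RPL26L1 and RPL36A at 48 h, and RPS6 overlaps between Aa and control at both times.

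Of the genes of the large subunit as represented here, RPL36A had the greatest log2 change at 48 h. RPL36A, an X-linked gene for a protein near the exit site for transfer RNA, had signals of 4.85, 5.11 and 5.09 in control and 4.94, 5.12 and 4.66 in Aa at 24 h. At 48 h they were 4.73, 4.69 and 4.83 in control and 6.85, 6.86 and 6.82 in Aa. The Aa arrays at 48 h stood above the other 9, the highest of which was at 5.12. The log2 change was -0.11 (SE 0.124) at 24 h and 2.10 (SE 0.124, 4.27-fold, limma adjusted p = 1.95e-07) at 48 h. The difference between the times was 2.20 (SE 0.175, adjusted p = 0.000111). Its probe set was dim, with a mean signal of 5.38, and its other probe set names several genes and was not used. Which transcripts the dim set reports is not known from these values.

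RPL35 and RPL19, proteins of the large subunit, rose slightly at 48 h. RPL35 had 14.36, 14.35 and 14.46 in control and 14.72, 14.57 and 14.75 in Aa at 48 h, a log2 change of 0.29 (SE 0.0858, 1.22-fold, limma adjusted p = 0.0117), after 0.15 at 24 h. RPL19 had 14.91, 15.00 and 14.99 in control and 15.17, 15.14 and 15.28 in Aa, a log2 change of 0.23 (SE 0.0823, 1.17-fold, adjusted p = 0.0303), after 0.13 at 24 h. In both genes the Aa arrays lay above the control arrays at each time. In a fit of the 48 h arrays alone neither passed, with adjusted p of 0.0536 and 0.0956. RPL19 also lost its call without replicate 3 of Aa or replicate 1 of control at 48 h.

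RPL3 fell at 48 h. Its product lies close to the peptidyl transferase centre and is among the first to join the assembling large subunit. Signals were 14.43, 14.44 and 14.31 in control and 14.31, 14.28 and 14.38 in Aa at 24 h, which overlap, and 14.62, 14.62 and 14.59 in control and 14.14, 14.07 and 14.20 in Aa at 48 h, which do not. The log2 change was -0.07 (SE 0.0833) at 24 h and -0.47 (SE 0.0833, 1.39-fold, limma adjusted p = 0.000491) at 48 h, and the difference between the times was -0.40 (SE 0.118, adjusted p = 0.0381). Leaving out 1 array ended the call of the difference in 10 of 12 fits, all but those without replicate 3 of Aa or of control at 48 h, with an adjusted p between 0.0532 and 0.0911. Control arrays of RPL3 were themselves higher at 48 h than at 24 h, 14.61 ± 0.01 against 14.39 ± 0.08 (SD, n = 3). The probe set is of the type that can bind related transcripts.

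RPL11, RPLP1 and RPL41 of the large subunit did not pass at either time. RPL11, a partner of RPL5 in binding MDM2, had 14.46, 14.48 and 14.51 in control and 14.59, 14.63 and 14.58 in Aa at 24 h, and 14.51, 14.58 and 14.50 in control and 14.67, 14.63 and 14.69 in Aa at 48 h. The groups did not overlap, and the log2 changes were 0.11 (95% interval -0.06 to 0.28, limma adjusted p = 0.246) and 0.13 (-0.04 to 0.30, adjusted p = 0.15). The stalk protein gene RPLP1, whose product recruits translation factors, had changes of 0.10 and 0.07. RPL41, the smallest protein of the ribosome, had 0.06 and -0.04.

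In the small subunit RPS19 rose and RPS15A fell at 48 h. RPS19, which is needed for maturation of 18S ribosomal RNA and is mutated in Diamond-Blackfan anaemia, had 14.98, 15.05 and 15.10 in control and 15.33, 15.24 and 15.34 in Aa at 48 h. Its log2 change was 0.26 (SE 0.0809, 1.20-fold, limma adjusted p = 0.0144), after 0.13 at 24 h, and its second probe set gave 0.24 at 48 h. The call was lost without replicate 1 of control at 48 h and, with an adjusted p of 0.0621, in a fit of the 48 h arrays alone. RPS15A had 15.02, 15.06 and 14.93 in control and 14.69, 14.69 and 14.76 in Aa at 48 h, a log2 change of -0.29 (SE 0.0859, 1.22-fold, adjusted p = 0.0126), after -0.09 at 24 h. A dimmer probe set of RPS15A moved the other way, as given below.

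RPS6, the substrate of the S6 kinases and a common readout of mTORC1 through its phosphorylation, had 15.05, 15.23 and 15.18 in control and 15.18, 15.33 and 15.22 in Aa at 24 h. At 48 h it had 15.18, 15.29 and 15.20 in control and 15.17, 15.16 and 15.38 in Aa. The groups overlapped at both times, and the log2 changes were 0.09 (95% interval -0.13 to 0.30) and 0.01 (-0.20 to 0.23). Its 2 other tested probe sets did not pass either. RPS4X, the X-linked copy of the gene that also exists on the Y chromosome, had 0.07 and 0.07.

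Genes that passed were found with and without a start tract. The 35 tested genes with a tract had a median log2 change of 0.09 at 24 h and 0.06 at 48 h, and 1 and 4 of them passed. The 16 without one had 0.08 and 0.10, and 1 and 4 of them passed. The groups differ in size, so these equal counts are unequal shares. Of all genes 49.1% passed at 24 h and 64.5% at 48 h. RPS15A, which passed at 48 h, had no promoter entry and is in neither group. These are descriptions of the annotated starts, with no test.

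Genes with several probe sets could be read more than once, though the sets of a gene may not detect the same transcripts. Of the 122 probe sets of the 61 genes, 104 passed the filter when probe sets were fitted one by one. Among the 73 with a mean signal over log2 12, limma called 2 higher and 0 lower at 24 h (2.74%) and 5 higher and 2 lower at 48 h (9.59%). Among the 31 up to log2 12 it called 10 higher and 3 lower at 24 h (41.9%) and 15 higher and 1 lower at 48 h (51.6%), close to the 46.5% and 60.7% of all 23669 probe sets tested. Of the 28 genes with more than 1 tested probe set, the fitted directions differed in 9 at 24 h and 10 at 48 h.

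Of the dim probe sets not used for their gene, 9 passed as higher at both times, and they belong to RPL37, RPS29, RPS15A, RPS23, RPS28 and RPL35A. Sets of RPS21 and RPS16 and a further set of RPL35A passed as higher at 48 h only, with log2 changes of 0.54, 0.64 and 0.61. The RPS16 set lay under log2 4 on 9 arrays and passed the filter only through its Aa arrays at 48 h. With arrays under log2 4 set to 4 it was at least 1.37-fold higher at 48 h, and no weight is placed on its call. Values of the dim sets were chosen for description after they were seen. RPS29 had 4.50, 4.71 and 3.44 in control and 9.02, 9.20 and 8.52 in Aa at 24 h, at least 22.8-fold higher with the control array under log2 4 set to 4 (limma adjusted p = 3.86e-06). At 48 h it had 5.49, 6.13 and 4.71 in control and 10.05, 10.35 and 10.41 in Aa, 28.4-fold higher (adjusted p = 1.77e-06). Every Aa array stood more than 3 log2 units above every control array of its time. The probe set used for RPS29, with a signal near 15, gave log2 changes of 0.08 and -0.07.

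RPL37, a zinc finger protein of the large subunit, had 3 such probe sets. The strongest had 7.84, 7.91 and 7.67 in control and 11.84, 11.79 and 11.66 in Aa at 24 h (15.5-fold, limma adjusted p = 2.39e-07), and 9.16, 9.12 and 8.22 in control and 11.93, 12.14 and 12.17 in Aa at 48 h (9.47-fold, adjusted p = 5.26e-07). The other RPL37 sets rose 10.6-fold and 6.63-fold at 24 h and 7.11-fold and 14.3-fold at 48 h. In all 3 the Aa and control arrays did not overlap at either time. The used RPL37 probe set did not pass, with log2 changes of -0.04 (95% interval -0.25 to 0.16) and -0.13 (-0.34 to 0.07).

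The RPS15A set of this kind had 6.95, 7.06 and 6.64 in control and 10.17, 10.24 and 10.09 in Aa at 24 h, and 7.97, 7.90 and 6.73 in control and 9.68, 10.03 and 9.99 in Aa at 48 h. It rose 9.76-fold and 5.16-fold (limma adjusted p = 5.23e-06 and 2.95e-05), while the used set fell at 48 h. RPS23, a protein of the decoding centre, rose 5.08-fold and 8.65-fold at its dim set, beside log2 changes of 0.03 and 0.01 at the used one. RPS28 rose 4.28-fold and 4.42-fold at one dim set and 2.47-fold and 2.87-fold at another, beside 0.09 and 0.01 at the used one. RPL35A rose 1.79-fold and 3.77-fold, beside 0.07 and 0.01.

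Not every dim probe set rose. A set of RPS27L fell, with 4.88, 5.37 and 5.27 in control and 3.89, 4.08 and 3.97 in Aa at 24 h, at least 2.22-fold lower (limma adjusted p = 0.00024), and 1.95-fold lower at 48 h (adjusted p = 0.000659). A set of RPL37A was at least 2.49-fold lower at 24 h (adjusted p = 0.0127), with control arrays of 5.20, 6.40 and 4.66 and Aa arrays of 3.83, 4.31 and 2.90, and did not pass at 48 h. The sequences that the probe sets detect were not used here, so which transcripts the dim sets report is not known from these values.

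**Figure D4:**
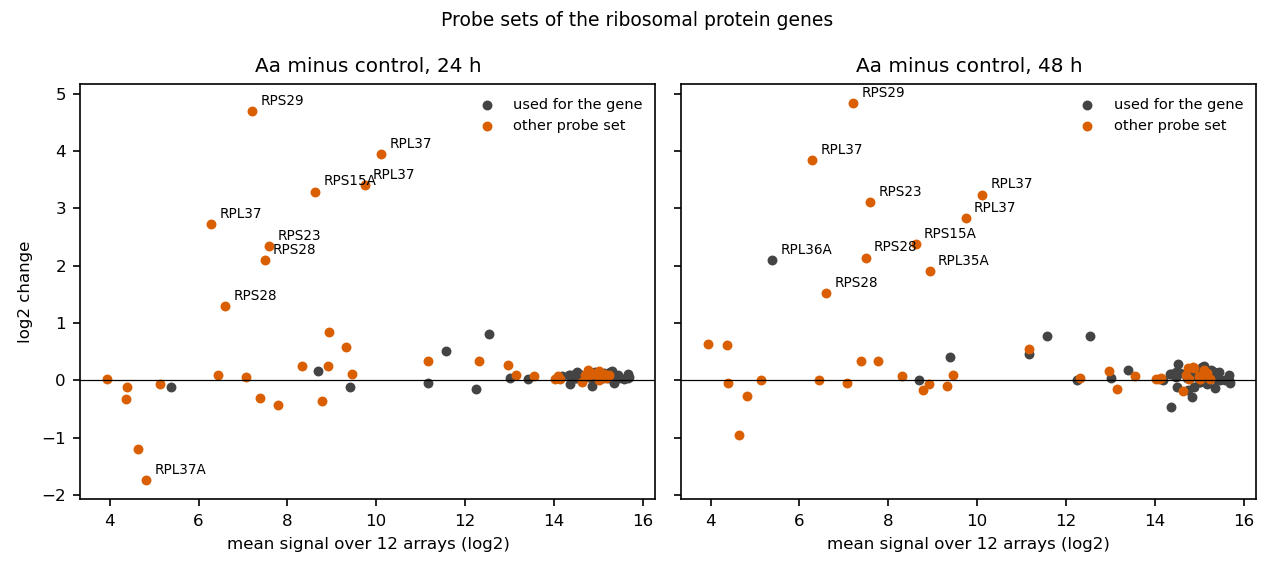
Log2 change of Aa minus control (vertical axis) against mean log2 signal over the 12 arrays (horizontal axis) for tested probe sets of the ribosomal protein genes at 24 h and 48 h, without the Y-linked gene; dark points are the sets used for each gene. Probe sets over log2 12 lie close to 0, while dimmer sets of RPL37, RPS29, RPS15A, RPS23 and RPS28 lie far above it.

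In control cells 0 of the 58 genes differed between 48 h and 24 h by limma's adjusted p, and 2 at an unadjusted p under 0.05. Of all genes 0.635% passed, 0.277% as higher and 0.358% as lower, so 0 of 58 is near that share. RPL27A had a log2 change of 0.48 over time in control (1.40-fold, limma adjusted p = 0.0632). In Aa cells 3 of the 58 were higher at 48 h than at 24 h and 0 lower (5.17%), where 29.2% of all genes passed. Aa minus control differed between the times for RPL36A and RPL26L1, which had the higher change at 48 h, and for RPL3, which had the lower. That is 5.17% of the 58, where 19.5% of all genes passed, 6.8% with the higher and 12.7% with the lower change at 48 h.

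Genes that make and assemble ribosomes were called in total shares near the 49.1% of all genes at 24 h and 64.5% at 48 h. Of 32 genes of nucleolar ribosomal RNA synthesis and processing, 8 were higher and 5 lower at 24 h (40.6%) and 17 higher and 5 lower at 48 h (68.8%). TAF1C, a subunit of the RNA polymerase I selectivity factor, had log2 changes of 1.50 and 2.25, and NOP2, a 28S ribosomal RNA methyltransferase, of 1.42 and 2.20. Of 30 genes of ribosome assembly and of import of ribosomal proteins, 11 were higher and 2 lower at 24 h (43.3%) and 15 higher and 6 lower at 48 h (70.0%). At 48 h the share called higher was 53.1% in the first list and 50% in the second, against 30.6% of all genes; these differences were not tested. MDN1, an ATPase that strips factors from the large subunit, had 0.99 at 24 h, IPO4, an importin, 1.59 at 48 h, and EFL1, a GTPase of the last cytoplasmic step, -1.61 at 48 h. RPF2, which brings RPL5 and RPL11 into the large subunit, had -0.90 at 24 h and -0.72 at 48 h.

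The other genes with TOP messages also had high signals, which bears on the share of them called. Of 13 elongation factors and other genes with TOP messages, 9 of the 10 with a promoter entry had a start tract. At 24 h 1 was higher and 0 were lower (7.69%, where 49.1% of all genes passed), and at 48 h 1 was higher and 4 lower (38.5%, where 64.5% of all genes passed). The riser was HNRNPA1, an RNA-binding protein, at 1.33 and 1.14. All of the 13 but HNRNPA1, at 11.85, had a mean signal over log2 12. From log2 12 to 14, limma called 29% of genes other than the ribosomal protein genes at 24 h and 54.5% at 48 h. Over log2 14 it called 6.49% and 41.6% of them. PABPC1, the poly(A)-binding protein, and EIF3E, an initiation factor subunit, fell by 0.61 and 0.62 at 48 h. FAU, which encodes RPS30 fused to a ubiquitin-like protein and lies outside the symbol rule, had 0.20 (limma adjusted p = 0.143) at 24 h and rose by 0.63 (adjusted p = 0.000309) at 48 h.

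Regulators of TOP messages and of mTORC1 changed in both directions, with 7 of 20 higher and 6 lower at 24 h (65.0%) and 8 higher and 9 lower at 48 h (85.0%), where 49.1% and 64.5% of all genes passed. DEPTOR, an inhibitor within mTORC1, had log2 changes of -1.59 and -2.96, and DDIT4, which restrains mTORC1 under stress, fell by 2.53 at 48 h. TIA1, a binder of TOP messages in stressed cells, rose by 1.42 at 24 h. Of 29 initiation factors, 5 were higher and 2 lower at 24 h (24.1%) and 14 higher and 3 lower at 48 h (58.6%), beside the same shares of all genes. At 48 h 48.3% were higher, against 30.6% of all genes, among them EIF5, with log2 changes of 0.80 and 1.29. EIF3C was at least 4.28-fold higher at 48 h. At each time 2 of its control arrays lay under log2 4, and it passed the filter only through its Aa arrays. No weight is placed on its call.

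Of 13 genes of ribosome rescue and quality control, 5 were higher and 2 lower at 24 h (53.8%) and 6 higher and 2 lower at 48 h (61.5%), near the 49.1% and 64.5% of all genes. GCN1, a sensor of collided ribosomes, had 0.99 and 1.49, and MAP3K20, the kinase that signals from them, -1.33 and -1.32. Of 7 genes that link ribosomal proteins to p53, 2 were higher and 1 lower at 24 h, and 1 higher and 2 lower at 48 h, 42.9% at each time beside those shares of all genes. CDKN1A, the p53 target that encodes p21, rose by 1.62 and 1.96. SURF2, whose product binds the 5S particle of RPL5 and RPL11, fell by 0.70 and 0.76, and MDM2 fell by 0.54 at 48 h.

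The proteins of the mitochondrial ribosome offered the nearest comparison by function. Of 75 tested, 11 were higher and 22 lower at 24 h (44.0%), and 23 higher and 26 lower at 48 h (65.3%), close to the 49.1% and 64.5% of all genes. MRPS28 had log2 changes of -1.21 and -1.80, MRPS14 -1.11 and -0.98, and MRPL49 0.97 and 1.38. Their median changes were -0.04 and 0.01. The 58 cytosolic genes passed in 3.45% and 15.5%. Whether these shares differ was not tested, and their signals lie in different ranges.

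**Figure D5:**
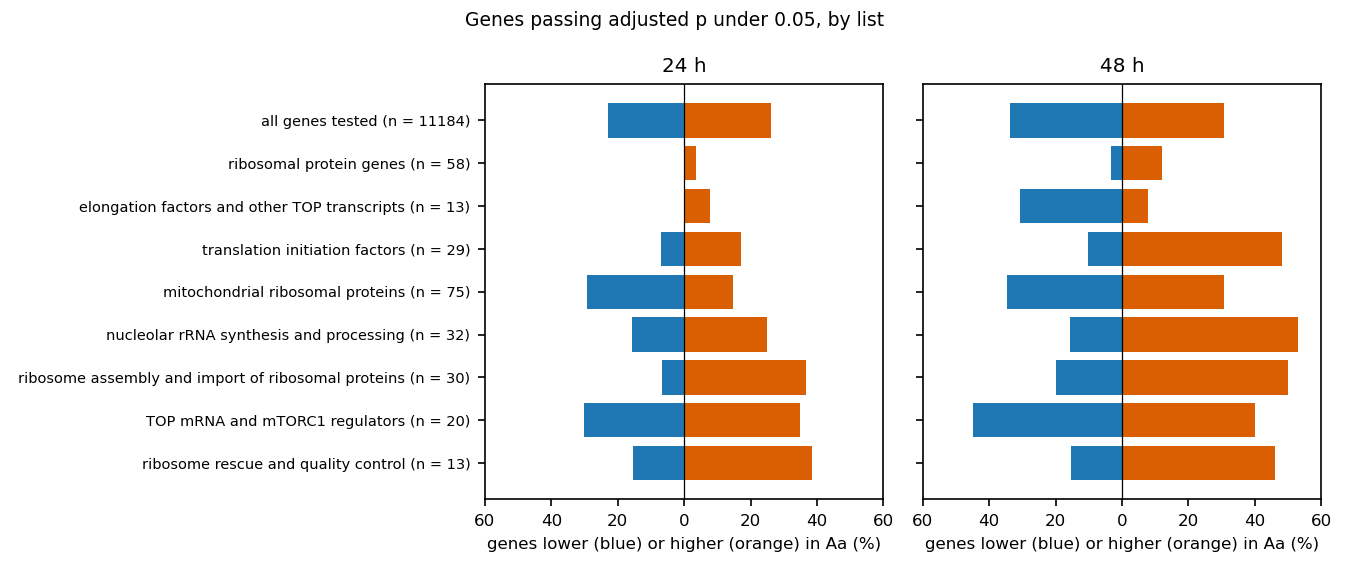
Percentage of genes lower (left) and higher (right) in Aa at a limma adjusted p under 0.05 (horizontal axis) at 24 h and 48 h, for all genes tested, the ribosomal protein genes and 7 lists of related genes (vertical axis), with the number tested. The bars of the ribosomal protein genes, 3.45% and 15.5% in all, are the shortest of each panel.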

How the data were processed

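Total RNA of 12 HK-2 cultures was labelled and hybridised to Affymetrix arrays, per the labels' protocols. The deposited values are log2 signals. Per the submitters' processing notes the authors used GCRMA, which corrects background, normalises between arrays and summarises probes; its version is not given here. The table held 54675 probe sets, 62 of them manufacturer's controls. The platform annotation named 1 gene for 41091 and several for 1801 of the others, and 41037 of the former matched RefSeq by gene number.

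Each gene took its probe set with the highest mean. The test was limma 3.58.1 (R 4.3.3), fitted as 4 group means over all 12 arrays (8 residual and 2.79 prior degrees of freedom), with Benjamini-Hochberg adjustment over 11184 genes, or over 23669 probe sets for single probe sets. The functions were tested on simulated data. Every adjusted p is limma's. A dim array entered an "at least" fold at log2 4. The number of arrays limits the precision: the median SE of a ribosomal protein gene's log2 change was 0.0854. No batch label was used here.

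Over all genes tested, same-numbered arrays deviated together from their group means in all 18 pairs (correlation 0.279 to 0.577, and -0.371 to -0.0286 for different numbers). Over the standard ribosomal proteins the correlations were -0.0708 to 0.744 for same numbers and -0.732 to 0.617 for different numbers. The pattern thus did not hold in every pair for them. Replicate number was used as a block in an alternative. Other alternatives changed the probe set per gene, filter, scaling, variance model and arrays. The genes and lists were chosen with earlier results of these data known. Genes were named by role, by the largest changes among those that passed with groups that did not overlap, by disagreement between probe sets, and from each list by size of change. Levels of the Y-linked gene are not reported.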

Additional observations from a re-analysis of the deposited data

Results flagged for a closer look

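In 3 ribosomal protein genes the change under Aa differed between the times by limma's test of the difference itself. It was higher at 48 h than at 24 h by 2.20 log2 units for RPL36A (SE 0.175, adjusted p = 0.000111) and by 0.50 for RPL26L1 (SE 0.130, adjusted p = 0.0244). For RPL3 the difference was -0.40 (SE 0.118, adjusted p = 0.0381). RPL36A kept its call in all 12 fits that left out 1 array, RPL26L1 in 6 and RPL3 in 2. The probe set of RPL36A was dim, with a mean signal of 5.38, and which transcripts it reports is not known from these values.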

How the results depend on the processing

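The counts of ribosomal protein genes called, 2 higher and 0 lower at 24 h and 7 higher and 2 lower at 48 h, depended on several choices. Preferring probe sets marked as specific gave 8 higher and 2 lower at 24 h and 12 higher at 48 h, with a median log2 change of 0.09 at 24 h. The mean of all probe sets gave 7 and 2 at 24 h and 18 and 1 at 48 h. RPS15A then reversed at 48 h, to 2.37 with specific sets and 0.91 with the mean. With no filter the counts were 10 higher at 24 h and 14 and 4 at 48 h. The trended and robust variance model gave 9 at 24 h, 17 and 4 at 48 h, and 2 lower for the difference between times. Quantile normalisation gave 12 higher at 48 h, 0 lower for the difference and a median of 0.05 at 24 h, and equal array medians gave 0.11. A fit of the 48 h arrays alone gave 4 higher. The replicate block gave 13 higher at 48 h, as in the report, and added RPL39L to the 2 genes with a higher change at 48 h than at 24 h; it ended no call.

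Scaling to the hybridisation controls gave 1 higher and 3 lower at 24 h, 1 and 38 at 48 h, 1 and 0 for the difference, and medians of -0.21 and -0.37. Of all genes, 49.3% passed on that scale at 24 h, 68.9% at 48 h and 16.7% for the difference. RPL19 (-0.21), RPL35 (-0.15), RPL39L (-0.03) and RPS19 (-0.18) reversed at 48 h without passing. RPL22L1 at both times and RPL7L1 and RPL26L1 at 48 h kept their direction and no longer passed. Apart from this shift in scale, and for RPS15A the other probe sets, the cause of these moves was not tested.

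Leaving out 1 array at a time gave 5 to 8 higher at 48 h, medians of 0.07 to 0.08 at 24 h and 0.05 to 0.09 at 48 h, and for the difference 1 to 2 higher and 0 to 1 lower. The 24 h counts stayed at 2 and 0 and the lower count at 48 h at 2 in these fits.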
